A study of Mus musculus with 18 samples.

Results

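Epithelial-mesenchymal transition genes were followed across 3 genotypes of mouse small cell lung cancer. The 10 genes were taken by name: the transcription factors Snai1, Snai2, Twist1, Twist2, Zeb1 and Zeb2, the epithelial genes Cdh1 and Epcam, and the mesenchymal genes Cdh2 and Vim. The RNA-seq table holds 46078 genes, and all 10 members passed the filter on low counts. For chromatin accessibility, every ATAC-seq peak from 5000 bp upstream of a member to its annotated end was taken, which gave 75 of 111664 peaks, and 74 of them passed the filter.

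The tumors came from mice in which adenoviral Cre was given to the lungs at 8 weeks of age, and were collected 28 weeks later. All 3 genotypes share conditional alleles of Rb1, p53 and another retinoblastoma family gene, given as Rbl1 in the sample labels and as Rbl2 in the Results of the study (TKO, the controls). In CARM1 knockout tumors Carm1 is conditional too, so the gene is lost only in cells that Cre reached. NFIB mutant tumors carry NfibR388K, in which the arginine of NFIB that the arginine methyltransferase CARM1 methylates is replaced by lysine. By the labels each genotype is represented by tumors from 3 independent animals, with 3 libraries per assay, and cells were sorted for a tdTomato reporter by the Methods, while the Results of the study name tumor biopsies. By those Results both assays used the same biopsies, but the labels do not say that the same replicate number in RNA-seq and ATAC-seq is the same tumor. Columns marked C, KO and N were read as TKO, CARM1 knockout and NFIB mutant, which no label spells out.

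In epithelial-mesenchymal transition, epithelial cells lose the junctions that hold them in a sheet and take on the cytoskeleton and matrix genes of migratory cells. Factors of the Snail (Snai1, Snai2), Twist (Twist1, Twist2) and ZEB (Zeb1, Zeb2) families are its best known drivers. Snail and ZEB proteins bind E-box sequences and repress epithelial genes such as Cdh1, which encodes E-cadherin. Small cell lung cancer is a neuroendocrine tumor, and its cells often hold both epithelial and neural adhesion molecules.

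Between 15848866 and 20915057 reads were counted on genes per RNA-seq library, and between 26917178 and 47653979 on peaks per ATAC-seq library. Levels are counts per 1000000 (CPM) after scaling with edgeR's TMM factors. The detection limit was set at 3 counts, which is 0.131 to 0.203 CPM in RNA-seq and 0.0576 to 0.127 CPM in ATAC-seq and covers counting error only. Some libraries stood apart from their labels. The 12 neuroendocrine markers together summed to 1655 to 4204 CPM in TKO, 59.2 to 2069 CPM in CARM1 knockout and 33.7 to 51.1 CPM in NFIB mutant tumors, so the label of small cell lung cancer cells was not met by these markers in most mutant libraries. The 2069 CPM were in CARM1 knockout replicate 3, and the other libraries of that genotype had 59.2 and 189.2 CPM. Calca alone gave 833.3 CPM in replicate 3, against 5.14 to 22.0 CPM in TKO. NFIB mutant replicate 1 had Sftpb, a surfactant protein gene of alveolar cells, at 1737 CPM, against at most 35.9 CPM elsewhere. Nfib RNA was lower in both mutants (420 to 580 CPM in TKO, 74.5 to 216 CPM in the mutants), and Carm1 RNA overlapped between the groups (44.5 to 104 CPM). Counts per gene do not resolve the deleted exons. The counts below were repeated without CARM1 knockout replicate 3 and NFIB mutant replicate 1, a choice made after the values were seen.

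A gene was called where edgeR's quasi-likelihood test gave an adjusted p under 0.1 and the log2 fold change was 0.8 or more in size. In CARM1 knockout tumors 5 of the 10 genes rose against TKO (Snai1, Snai2, Twist2, Zeb2 and Vim) and none fell. Across all 15514 genes tested, 20.5% were called higher and 18.3% lower. In NFIB mutant tumors 6 rose (Snai1, Snai2, Twist1, Twist2, Cdh1 and Vim) and none fell, where 22.3% of all genes were called higher and 23.5% lower. In the direction of a fall 0 members had an unadjusted p under 0.05 in either mutant, and DESeq2 called 0 lower. The median log2 fold change of the 10 genes was 3.56 for CARM1 knockout, against -0.03 over all genes, and 2.98 for NFIB mutant tumors, against -0.05 over all genes. Scaling by library totals moved the median of all genes by -0.27 and -0.33, and the share of calls that were higher from 52.9% to 39.4% (CARM1 knockout) and from 48.7% to 35.8% (NFIB mutant). The members then gave 4 higher for CARM1 knockout, and for NFIB mutant 4 higher with Cdh2 lower. Without the pair of libraries named above, 5 rose and Cdh2 and Epcam fell in CARM1 knockout, and 5 rose and Epcam fell in NFIB mutant tumors. In every library of both mutants Snai1, Snai2, Twist2 and Vim were above every TKO library, which held for 22.3% of all genes tested. The 7 fibroblast markers, described with the other cell types below, moved with these genes. More cells of a type and more RNA per cell cannot be told apart in these libraries.

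**Figure D1:**
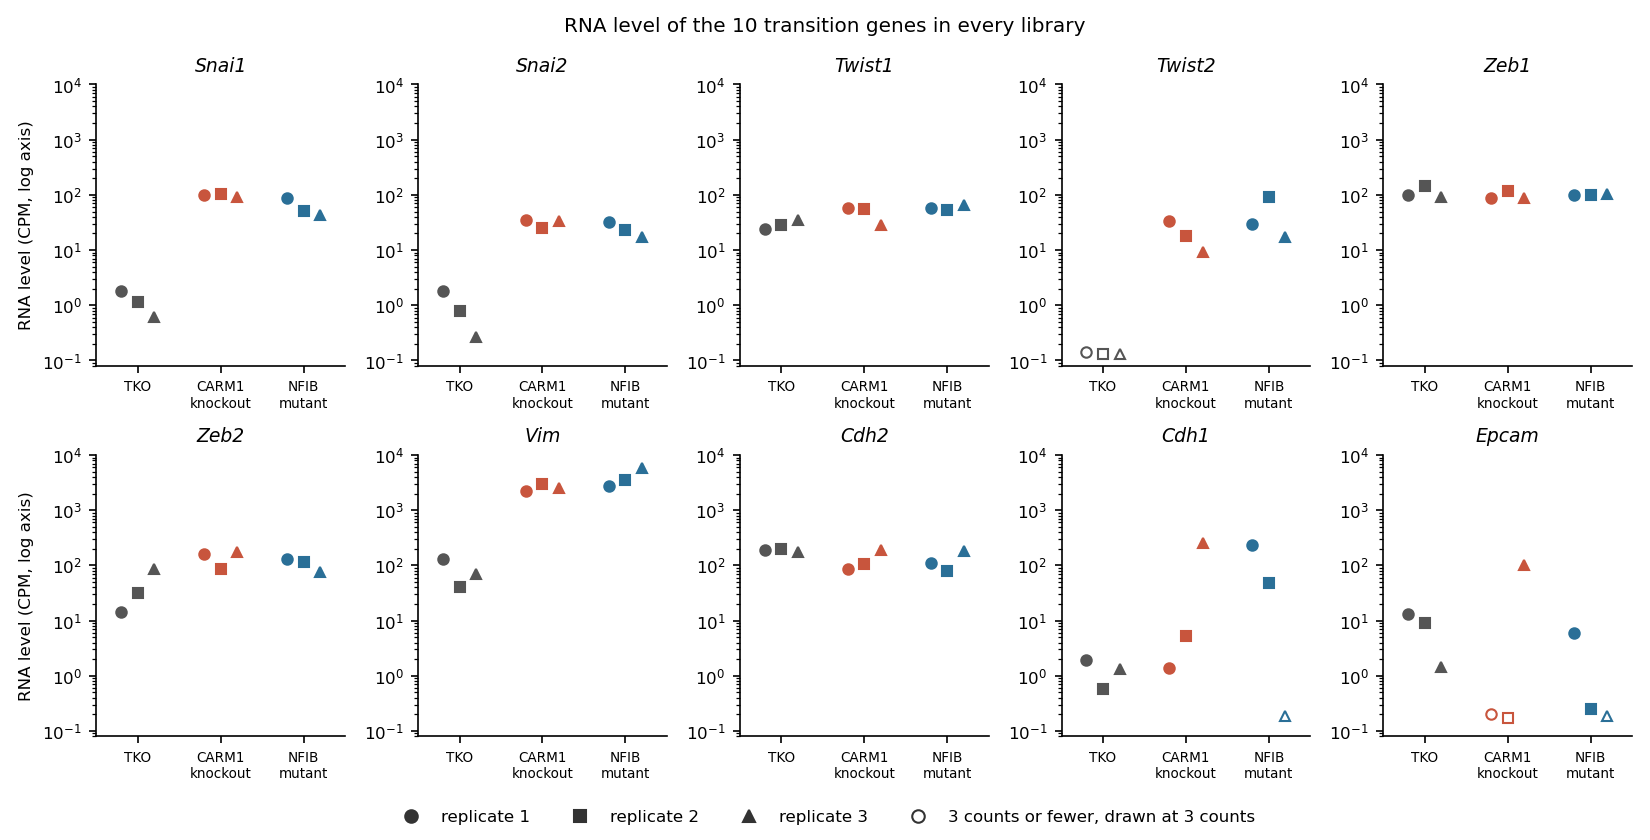
RNA level of the 10 genes in each library, in CPM on a log axis, with 3 TKO, 3 CARM1 knockout and 3 NFIB mutant libraries per panel and the replicate number shown by the symbol. Open symbols mark 3 counts or fewer and are drawn at 3 counts. Snai1, Snai2, Twist2 and Vim show no overlap between TKO and the mutants, Zeb1 and Cdh2 lie close together, and Cdh1 and Epcam are spread over the mutant libraries.

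Snai1, the gene of Snail and a repressor of Cdh1 (chromosome 2, 167538195 to 167542814, plus strand, on GRCm38 as all positions here), rose in every mutant library. It was at 1.83, 1.14 and 0.620 CPM in the TKO libraries, at 99.7, 103.5 and 92.2 CPM in CARM1 knockout and at 89.5, 50.8 and 43.8 CPM in NFIB mutant libraries. All 6 mutant libraries were therefore at least 43.8 CPM, and no TKO library exceeded 1.83 CPM. The log2 fold change was 6.36 ± 0.489 (SE) in CARM1 knockout (adjusted p = 0.000388) and 5.68 ± 0.475 in NFIB mutant tumors (adjusted p = 0.000323).

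The chromatin at the start of Snai1 was already open in TKO tumors and gained reads in the mutants. The peak over its start (chr2:167537486-167540166) was at 9.05, 9.89 and 9.85 CPM in TKO, at 24.0, 25.7 and 29.7 CPM in CARM1 knockout and at 21.2, 31.7 and 26.4 CPM in NFIB mutant libraries. Its mean was 2.76 times the TKO mean in CARM1 knockout and 2.75 times in NFIB mutant tumors, so the change in accessibility was smaller than the 82.4-fold and 51.4-fold changes of the mean RNA level. The peak's log2 fold changes were 1.46 ± 0.203 in each mutant (adjusted p = 0.000238 and 0.00021).

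The bases before the start of Snai1 lie inside this peak and are shown because they hold an E-box of the form that Snail and ZEB proteins bind, CACCTG or its reverse complement CAGGTG, so both strands were searched. The 250 bases are from RefSeq on GRCm38.p6, at chr2:167537945-167538194 on the plus strand, with the E-box in capitals.
Snai1 promoter: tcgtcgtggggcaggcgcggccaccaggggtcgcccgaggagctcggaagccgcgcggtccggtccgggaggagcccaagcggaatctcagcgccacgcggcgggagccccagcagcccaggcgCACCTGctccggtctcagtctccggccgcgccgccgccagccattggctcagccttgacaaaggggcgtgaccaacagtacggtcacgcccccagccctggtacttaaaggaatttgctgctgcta
The E-box began 126 bases before the start. Of 32851 RefSeq promoters, 17.2% held such an E-box in the same 250 bases. Promoter entries were found for 6 of the 10 genes (Snai1, Twist1, Twist2, Zeb2, Epcam and Vim), and among them Snai1 and Epcam held the E-box.

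Snai2, the gene of Slug and the relative of Snai1 (chromosome 16, 14705852 to 14709385, plus strand), rose as well, and its level per kb of exon was lower than that of Snai1 in all 6 mutant libraries. It was at 1.83, 0.787 and 0.266 CPM in TKO, at 34.9, 24.9 and 34.1 CPM in CARM1 knockout and at 32.4, 23.5 and 17.3 CPM in NFIB mutant libraries. The groups did not overlap, and the log2 fold change was 5.02 ± 0.682 in CARM1 knockout (adjusted p = 0.00214) and 4.66 ± 0.671 in NFIB mutant tumors (adjusted p = 0.00196). Its start-site peak rose from 11.4 to 14.3 CPM in TKO to 24.7 to 27.5 CPM in CARM1 knockout and 25.1 to 27.5 CPM in NFIB mutant libraries. This peak had log2 fold changes of 1.02 ± 0.173 and 1.01 ± 0.173 (adjusted p = 0.000711 and 0.00067) and the ranges of the mutants overlapped. Another peak in Snai2, over an exon 2510 bp after the start, went from 0.0956 to 0.169 CPM in TKO to 0.768 to 1.47 CPM in the mutants, close to the detection limit in TKO.

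The Twist genes, which encode basic helix-loop-helix factors of mesoderm, differed from each other. Twist2 (chromosome 1, 91801461 to 91848028, plus strand) was at 3, 3 and 1 counts in the TKO libraries, at or under the detection limit. It reached 33.4, 18.1 and 9.21 CPM in CARM1 knockout and 30.03, 90.4 and 17.5 CPM in NFIB mutant libraries. Against the limit of 3 counts per library the CARM1 knockout mean was at least 149-fold higher and the NFIB mutant mean at least 338-fold higher, or at least 174.5-fold higher without NFIB mutant replicate 2, which held the highest value. The adjusted p was 0.00173 and 0.000928.

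Twist1 (chromosome 12, 33957671 to 33959829, plus strand) was present in all libraries. It was at 23.7, 28.0 and 34.6 CPM in TKO, at 58.8, 55.5 and 29.1 CPM in CARM1 knockout and at 57.2, 52.6 and 64.8 CPM in NFIB mutant libraries. CARM1 knockout replicate 3 lay among the TKO values, and the other 5 mutant libraries lay above them. The log2 fold change was 1.02 ± 0.286 in NFIB mutant tumors (adjusted p = 0.0235) and 0.73 ± 0.284 in CARM1 knockout (adjusted p = 0.0778), which missed the limit on the fold change. Without CARM1 knockout replicate 3 it was 1.03 (adjusted p = 0.0141), and without TKO replicate 3 it was 0.92 (adjusted p = 0.0644). With scaling by library totals the NFIB mutant value dropped under the limit, at 0.68.

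Accessibility set the Twist genes apart too, and the start-site peak of Twist1 was not called higher in either mutant. The start-site peak of Twist2 (chr1:91800014-91803154) rose from 2.996, 3.49 and 5.79 CPM in TKO to 35.4, 39.1 and 35.2 CPM in CARM1 knockout and to 26.9, 45.5 and 38.2 CPM in NFIB mutant libraries. That was 8.93 and 9.01 times the TKO mean (log2 fold changes 3.16 ± 0.285 and 3.17 ± 0.285, adjusted p = 2.7e-05 and 2.4e-05). The start-site peak of Twist1 was at 32.2, 32.0 and 54.0 CPM in TKO tumors, and its groups overlapped, with 32.2 to 37.7 CPM in CARM1 knockout and 22.2 to 35.5 CPM in NFIB mutant libraries (log2 fold changes -0.15 ± 0.235 and -0.42 ± 0.235, adjusted p = 0.58 and 0.13). In NFIB mutant tumors it was called lower, at -0.55 to -0.59, in 5 alternatives: relative log expression factors, DESeq2, and without TKO replicate 1, TKO replicate 2 or NFIB mutant replicate 2 (adjusted p of 0.0515 to 0.0967). With library totals it was 0.11. A peak upstream of Twist1, with its middle at -1713 bp from the start, fell, from 4.37, 4.85 and 2.37 CPM in TKO to 0.29 to 0.827 CPM in the mutants, and was chosen after its values were seen. Its log2 fold changes were -2.57 ± 0.533 and -2.55 ± 0.533 (adjusted p = 0.00202 and 0.00195).

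The gene body of Twist2 held peaks that moved both ways. Of 5 peaks after the start-site peak, all in the intron, 3 rose in both mutants, 1 rose in NFIB mutant tumors alone by the test and 1 fell in both. Whether that lone peak differed between the mutants is answered by their direct comparison below, in which no peak was called. The largest rise by the fixed rule, 21793 bp after the start, went from 1.498 to 2.28 CPM in TKO to 11.4 to 20.0 CPM in CARM1 knockout and 16.9 to 21.7 CPM in NFIB mutant libraries. The fall, 43898 bp after the start, went from 15.3, 18.7 and 5.11 CPM in TKO to 1.43 to 2.87 CPM in CARM1 knockout and 1.22 to 4.14 CPM in NFIB mutant libraries. The gene overlaps the antisense gene Gm29100 and Gm29101, whose highest counts were 39 and 25, and the strand used in counting is not given in the sources used here.

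The middle 300 bases of these intronic peaks and the 250 bases before the start of Twist2 are shown because they opened and closed in opposite directions within a single gene. All are from GRCm38.p6 on the plus strand, the last from RefSeq. None held the E-box or the palindrome of the NFI family, TGGC, any 5 bases, GCCA, so no base is in capitals.
Twist2 intron peak that rose, chr1:91823104-91823403: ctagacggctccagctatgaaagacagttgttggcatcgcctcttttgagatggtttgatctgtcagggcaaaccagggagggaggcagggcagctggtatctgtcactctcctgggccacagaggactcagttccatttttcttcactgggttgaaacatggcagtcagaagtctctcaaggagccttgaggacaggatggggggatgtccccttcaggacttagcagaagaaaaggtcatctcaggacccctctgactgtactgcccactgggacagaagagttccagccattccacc
Twist2 intron peak that fell, chr1:91845209-91845508: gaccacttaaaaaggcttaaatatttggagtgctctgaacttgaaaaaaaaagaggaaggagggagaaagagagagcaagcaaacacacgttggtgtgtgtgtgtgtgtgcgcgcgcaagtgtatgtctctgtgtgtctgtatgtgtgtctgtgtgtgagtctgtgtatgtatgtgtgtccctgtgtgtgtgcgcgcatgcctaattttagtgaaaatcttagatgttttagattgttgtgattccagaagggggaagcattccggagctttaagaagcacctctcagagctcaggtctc
Twist2 promoter, chr1:91801211-91801460: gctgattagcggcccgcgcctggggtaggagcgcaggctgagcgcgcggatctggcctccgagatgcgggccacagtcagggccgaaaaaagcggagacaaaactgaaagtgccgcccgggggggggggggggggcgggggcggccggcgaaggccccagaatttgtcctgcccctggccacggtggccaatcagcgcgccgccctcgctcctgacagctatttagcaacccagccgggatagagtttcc

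The ZEB genes encode zinc finger repressors of Cdh1, and neither rose like Snai1. Zeb1 RNA (chromosome 18, 5591860 to 5775467, plus strand) was at 101.5, 145.5 and 90.6 CPM in TKO, at 87.7, 116.7 and 86.2 CPM in CARM1 knockout and at 98.9, 97.7 and 104.2 CPM in NFIB mutant libraries. The groups overlapped throughout. The log2 fold changes were -0.22 ± 0.211 and -0.17 ± 0.211 (adjusted p = 0.442 and 0.54), and without TKO replicate 2, the highest library, they were 0.01 and 0.06.

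Accessibility along Zeb1 changed although its RNA was not called. Of its 8 peaks, 5 rose and 2 fell in both mutants. The start-site peak fell from 35.7, 29.9 and 36.4 CPM in TKO to 17.1, 23.2 and 23.6 CPM in CARM1 knockout and 18.8, 26.1 and 17.8 CPM in NFIB mutant libraries (log2 fold changes -0.67 ± 0.209 and -0.70 ± 0.209, adjusted p = 0.0153 and 0.012). Scaling by library totals brought this fall to -0.10 and -0.15, under the limit. The largest rise by the fixed rule was in an intron 148564 bp after the start, from 0.542, 1.36 and 1.35 CPM in TKO to 20.7, 25.8 and 22.1 CPM in CARM1 knockout and 13.5, 21.6 and 17.6 CPM in NFIB mutant libraries. That was 21.1 and 16.2 times the TKO mean, with log2 fold changes of 4.40 ± 0.38 and 4.02 ± 0.374 (adjusted p = 2.3e-05 and 2.8e-05).

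Zeb2 RNA (chromosome 2, 44983632 to 45117395, minus strand) varied widely among the TKO libraries. It was at 14.5, 31.2 and 85.8 CPM in TKO, at 163.6, 85.3 and 171.6 CPM in CARM1 knockout and at 128.6, 116.8 and 76.7 CPM in NFIB mutant libraries. TKO replicate 3 overlapped with both mutants, and the other TKO libraries lay below all mutant libraries. The log2 fold change was 1.68 ± 0.612 in CARM1 knockout (adjusted p = 0.0657) and 1.29 ± 0.606 in NFIB mutant tumors (adjusted p = 0.116). The call in CARM1 knockout was lost without TKO replicate 1, TKO replicate 2, CARM1 knockout replicate 1 or CARM1 knockout replicate 3 (adjusted p of 0.114, 0.168, 0.148 and 0.123). It was also lost without the pair of libraries named above (0.153), with library totals (0.112), in a fit of the compared genotypes alone (0.112) and at a threshold of 0.05. Without TKO replicate 3 the NFIB mutant value became 2.26 (adjusted p = 0.0117).

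The spread of TKO replicates at Zeb2 was seen in accessibility too. The start-site peak was at 3.95, 5.47 and 9.34 CPM in TKO, at 10.1, 9.76 and 15.4 CPM in CARM1 knockout and at 10.7, 12.9 and 12.2 CPM in NFIB mutant libraries (log2 fold changes 0.91 ± 0.357 and 0.94 ± 0.357, adjusted p = 0.042 and 0.0364). This call was lost in CARM1 knockout without TKO replicate 1, TKO replicate 2 or CARM1 knockout replicate 3 (adjusted p of 0.13, 0.106 and 0.161) and without the pair of libraries named above (0.194), and in NFIB mutant tumors without TKO replicate 1 (0.114). The ATAC-seq library numbered 3 was the highest TKO library at 10 of the 12 Zeb2 peaks within 30 kb of the start, a count made after the values were seen. Over the 20 peaks of Zeb2, 10 rose and 3 fell in both mutants, and 6 were called in neither. The 5 rises at 60188 to 70139 bp and at 97548 bp from the start had log2 fold changes of 2.20 to 4.03 and no overlap between TKO and the mutants, and the other 5, at 800 to 15451 bp, had changes of 0.91 to 2.28. Zeb2 overlaps the antisense gene Zeb2os, which had at most 9 counts in a library.

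Vim, the gene of vimentin and the main intermediate filament of mesenchymal cells (chromosome 2, 13573927 to 13582826, plus strand), had the highest level per kb of the 10 genes in the mutants. It was at 130.9, 41.0 and 71.2 CPM in TKO, at 2264, 2973 and 2509 CPM in CARM1 knockout and at 2697, 3548 and 5712 CPM in NFIB mutant libraries. The lowest mutant library was far above the highest TKO library, and the log2 fold change was 4.99 ± 0.528 in CARM1 knockout (adjusted p = 0.000908) and 5.62 ± 0.544 in NFIB mutant tumors (adjusted p = 0.000503). Its start-site peak rose from 14.2, 13.7 and 26.1 CPM in TKO to 67.2 to 80.0 CPM in CARM1 knockout and 70.7 to 97.8 CPM in NFIB mutant libraries, 4.20 and 4.50 times the TKO mean (adjusted p = 0.00011 and 7.7e-05). All 4 peaks of Vim had every mutant library above every TKO library, 3 were called higher in both mutants, and the fourth, 6242 bp after the start, in NFIB mutant tumors alone.

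**Figure D2:**
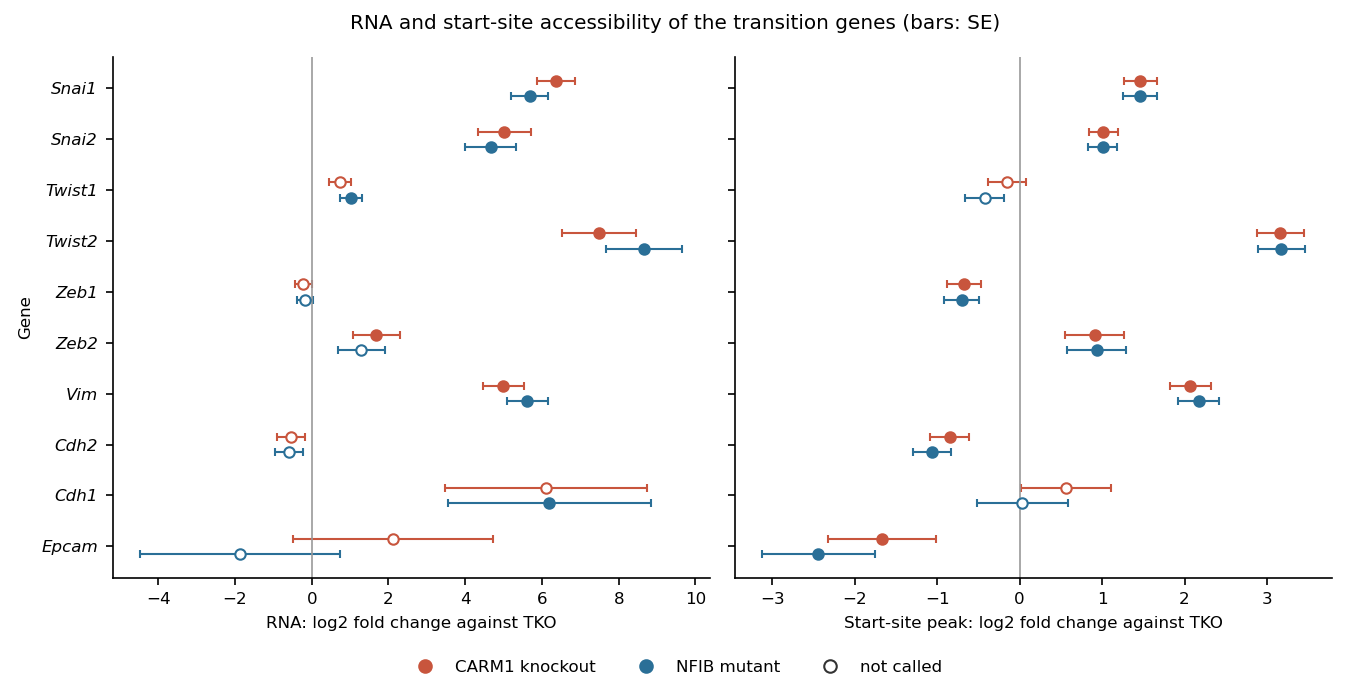
Log2 fold change against TKO of RNA (left) and of the start-site peak (right) for the 10 genes, with SE as bars, for CARM1 knockout and NFIB mutant tumors (3 libraries each against 3). Filled points were called. Snai1, Snai2, Twist2 and Vim rose in both readouts, while the start-site peaks of Zeb1 and Cdh2 were lower without a call in RNA.

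Cdh2, the gene of N-cadherin and the usual counterpart of E-cadherin (chromosome 18, 16588877 to 16809246, minus strand), was already expressed in TKO tumors and did not rise. It was at 193.1, 195.4 and 171.9 CPM in TKO, at 87.8, 107.0 and 191.0 CPM in CARM1 knockout and at 108.9, 80.3 and 183.1 CPM in NFIB mutant libraries. CARM1 knockout replicate 3 and NFIB mutant replicate 3 lay at the TKO level, and the other 4 mutant libraries lay below it. The log2 fold changes were -0.54 ± 0.367 and -0.59 ± 0.367 (adjusted p = 0.274 and 0.22). Without CARM1 knockout replicate 3 the value was -0.89 (adjusted p = 0.0804), without NFIB mutant replicate 3 it was -0.97 in that mutant (adjusted p = 0.0746), and both would be called.

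The start-site peak of Cdh2 was at 100.3, 94.1 and 82.5 CPM in TKO, 38.1, 46.7 and 68.9 CPM in CARM1 knockout and 48.5, 32.1 and 52.0 CPM in NFIB mutant libraries. It was lower in every mutant library (log2 fold changes -0.85 ± 0.232 and -1.06 ± 0.233, adjusted p = 0.00838 and 0.00254), but under the limits with scaling by library totals (-0.26 and -0.48). The introns held changes in both directions, with 9 of 16 peaks tested higher and 6 lower in both mutants, the start-site peak among the lower. The largest rise by the fixed rule, 58577 bp after the start, went from 0.338 to 0.478 CPM in TKO to 4.53 to 11.4 CPM in CARM1 knockout and 4.65 to 7.24 CPM in NFIB mutant libraries (log2 fold changes 4.36 ± 0.497 and 3.75 ± 0.486, adjusted p = 8.6e-05 and 0.000144).

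**Figure D3:**
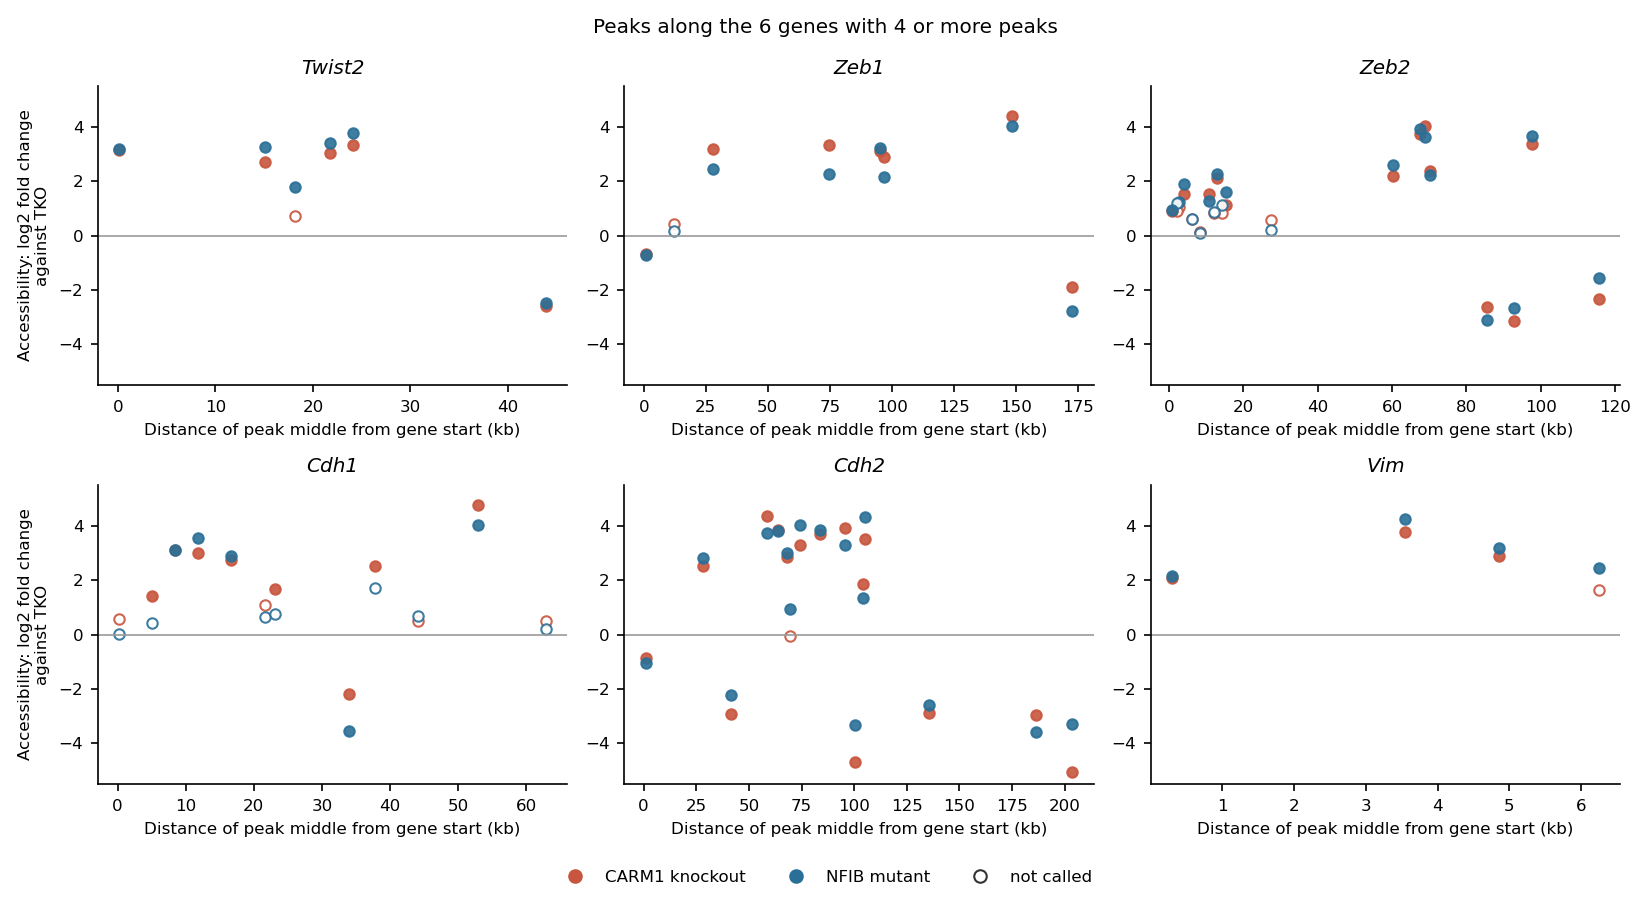
Log2 fold change of accessibility against TKO for each tested peak of the 6 genes with 4 or more peaks, by the distance of the peak's middle from the gene start in kb, for CARM1 knockout and NFIB mutant tumors. Filled points were called. Twist2, Zeb1, Zeb2, Cdh1 and Cdh2 hold called peaks above and below 0, and those of Vim lie above 0.

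Cdh1, the gene of E-cadherin (chromosome 8, 106603351 to 106670246, plus strand), did not follow the genotypes. It was at 1.92, 0.569 and 1.33 CPM in TKO, so its RNA was nearly absent from the control tumors. It was at 1.36, 5.19 and 257.6 CPM in CARM1 knockout and at 232.5, 48.0 and 0 CPM in NFIB mutant libraries. High values were thus found in CARM1 knockout replicate 3 and NFIB mutant replicates 1 and 2, and NFIB mutant replicate 3 had 0 counts of 17676402, which allows up to 0.191 CPM. The log2 fold changes had wide errors, 6.11 ± 2.64 in CARM1 knockout (adjusted p = 0.105) and 6.19 ± 2.65 in NFIB mutant tumors (adjusted p = 0.0909). The NFIB mutant call was lost in 10 of 17 alternatives. Among them were the fits without each of the TKO libraries in turn (adjusted p of 0.173 to 0.205), without NFIB mutant replicate 1 (log2 fold change 4.24, adjusted p = 0.216) and without NFIB mutant replicate 2 (adjusted p = 0.126). In CARM1 knockout a call was gained in 3 of 17 alternatives, with a lowest adjusted p of 0.0074. These were DESeq2, a fit of the compared genotypes alone and the fit without NFIB mutant replicate 3 (adjusted p = 0.0604).

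Levels per kb of exon used the merged length of all annotated exons, which can exceed the transcripts present (19942 bases for Zeb2). Comparisons between genes are thus approximate. By this measure Cdh2 was above Cdh1 in all TKO libraries, with a ratio of Cdh1 to Cdh2 of 0.00513 to 0.0175. The ratio was 0.0272, 0.0856 and 2.38 in CARM1 knockout and 3.76, 1.05 and 0 in NFIB mutant libraries. Thus 3 of the 6 mutant libraries held more Cdh1 than Cdh2 per kb, and no TKO library did. By mean level per kb, the order in TKO was Cdh2 (23.2 CPM per kb), Twist1 (17.7), Vim (17.1), Zeb1 (10.96), Epcam (3.54), Zeb2 (2.20), Snai1 (0.737), Snai2 (0.475), Cdh1 (0.278) and Twist2 (0.0336). The libraries of neighbours in this order overlapped except between Cdh2 and Twist1, between Zeb1 and Epcam and between Cdh1 and Twist2. In both mutants Vim was the highest, at 544 and 840 CPM per kb, above all other members in every library, and Snai1 was next by mean at 60.7 and 37.9. Snai1 overlapped with Twist1, the third by mean, in NFIB mutant tumors but not in CARM1 knockout.

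Peaks in the introns of Cdh1 changed in both mutants, and its start-site peak was not called. The start-site peak was at 2.84, 1.51 and 3.04 CPM in TKO, at 1.78, 2.75 and 6.39 CPM in CARM1 knockout and at 3.53, 2.41 and 1.63 CPM in NFIB mutant libraries, with overlapping groups (log2 fold changes 0.56 ± 0.551 and 0.03 ± 0.552, adjusted p = 0.381 and 0.962). Of the 12 peaks, 4 in introns rose in both mutants with no overlap between the groups, and 1 fell. No peak of Cdh1 other than that at its start met the rule for naming, so the following were chosen after the values were seen. A peak 16582 bp after the start rose from 0.765 to 1.01 CPM in TKO to 4.37 to 8.05 CPM in CARM1 knockout and 6.13 to 7.03 CPM in NFIB mutant libraries (adjusted p = 0.000296 and 0.000199). A peak 8436 bp after the start rose from 0.414 to 0.958 CPM to 4.90 to 7.06 CPM and 3.36 to 8.04 CPM (adjusted p = 0.000565 and 0.000491).

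Epcam, the gene of an adhesion molecule of epithelial cells that small cell lung cancer also carries (chromosome 17, 87635979 to 87651129, plus strand), was at 12.9, 8.97 and 1.42 CPM in TKO. It was at 0, 0 and 101.1 CPM in CARM1 knockout and at 6.08, 0.247 and 0 CPM in NFIB mutant libraries. CARM1 knockout replicate 3 was the highest of all 9 libraries, and 4 of the 6 mutant libraries lay below the lowest TKO library. The log2 fold changes were 2.12 ± 2.60 and -1.88 ± 2.61 (adjusted p = 0.545 and 0.577). The sign in CARM1 knockout rests on replicate 3: without it both remaining libraries held 0 counts, the mean was at least 41.1-fold lower than in TKO against the limit of 3 counts per library, and the gene would be called lower (adjusted p = 0.0763).

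The peak nearest to the start of Epcam, with its middle at -218 bp, was at 1.43, 1.76 and 0.634 CPM in TKO, at 0.207, 0.269 and 0.726 CPM in CARM1 knockout and at 0.329, 0.12 and 0.255 CPM in NFIB mutant libraries. CARM1 knockout replicate 3 was the only mutant library within the TKO range of this peak. For this peak the log2 fold changes were -1.67 ± 0.655 and -2.44 ± 0.683 (adjusted p = 0.0419 and 0.00887). In CARM1 knockout this call was lost in 4 of 17 alternatives, with adjusted p up to 0.1755. Among them were the fits without TKO replicate 2, CARM1 knockout replicate 1 or CARM1 knockout replicate 2 (adjusted p of 0.135, 0.132 and 0.127). The smallest fall in any alternative was -1.03.

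The bases before the start of Epcam are shown because they held an E-box of the Snail and ZEB form at 187 and at 19 bases before the start, in capitals. They are from RefSeq on GRCm38.p6, chr17:87635729-87635978, plus strand.
Epcam promoter: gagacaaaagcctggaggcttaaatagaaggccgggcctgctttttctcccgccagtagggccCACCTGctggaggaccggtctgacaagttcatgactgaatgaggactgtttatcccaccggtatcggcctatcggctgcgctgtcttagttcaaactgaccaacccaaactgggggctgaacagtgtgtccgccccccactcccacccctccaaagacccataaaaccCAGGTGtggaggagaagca
In the middle 300 bases of the peaks, the E-box was found in 12 of the 75 member peaks (16.0%), beside 18.3% of all 111664 peaks, and in 7 of 39 that rose and 2 of 15 that fell in both mutants. The NFI palindrome was found in 1 of the 75, an intron peak of Cdh2 that fell in both mutants, beside 2.21% of all peaks, and in none of the start-site peaks. Matches of these letters are a description and do not show binding.

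Over all regions, a peak was called where the adjusted p was under 0.1 and the log2 fold change was 0.5 or more in size. Of the 74 peaks tested, 42 rose and 15 fell in CARM1 knockout, where 38.7% of all 111116 peaks were called higher and 32.4% lower. In NFIB mutant tumors 43 rose and 16 fell, where 39.3% of all peaks were called higher and 34.0% lower. Scaling by library totals moved the median of all peaks by 0.57 in each mutant and the share of calls that were higher from 54.4% to 65.9% and from 53.6% to 64.3%, and 49 and 50 member peaks were then higher and 11 and 12 lower. The median log2 fold change was 1.49 and 1.40 over these peaks and 0.22 in each mutant over all peaks. In total 39 rose and 15 fell in both mutants. Every mutant library was above every TKO library at 38 of the 75 peaks and below at 13, shares that were 33.1% and 28.6% over all peaks tested. Both peaks of Snai1 and of Snai2 rose, and no peak of Twist1 or Epcam did. Without CARM1 knockout replicate 3 and NFIB mutant replicate 1, 36 rose and 16 fell in CARM1 knockout and 39 rose and 16 fell in NFIB mutant tumors.

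No difference between the mutants was called at these genes. In CARM1 knockout against NFIB mutant none of the 10 genes was called by edgeR (smallest adjusted p = 0.63), none had an unadjusted p under 0.05, and DESeq2 called none. For comparison 0.0% of all genes were called by edgeR, while DESeq2 called 317 higher and 223 lower of 16763 genes tested. The largest difference of a member above the detection limit in all 6 libraries was for Twist2 (log2 fold change -1.18 ± 0.69, lower in CARM1 knockout), and that of Snai1 was 0.68 ± 0.384. None of the 74 peaks was called by edgeR or DESeq2, and 2 had an unadjusted p under 0.05. Over all peaks edgeR called 0.0%, and DESeq2 called 523 higher and 537 lower of 111002 tested. The 3 libraries per group limit what could be seen, and for 3 against 3 libraries an exact permutation test of any value cannot go below a p of 0.10.

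The other genes of the pathway were taken from 6 lists with 55 genes, of which 48 were tested. In CARM1 knockout 20 rose and 3 fell, and in NFIB mutant tumors 22 rose and 5 fell. Over all genes 20.5% were higher and 18.3% lower in the former, and 22.3% and 23.5% in the latter. The mesenchymal readouts moved the most, with 12 of 13 higher in each mutant and a median log2 fold change of 6.89 and 6.55. Mmp2, a gelatinase that cuts matrix, rose from 0.577 to 1.68 CPM in TKO to 240.7 to 1113 CPM in CARM1 knockout and 372.9 to 2401 CPM in NFIB mutant libraries. Itga5, the fibronectin receptor subunit, rose from 0.842 to 3.24 CPM to 250.6 to 380.8 and 247.8 to 503.7 CPM. Fbn1, the gene of the microfibril protein fibrillin, rose from 0.532 to 4.80 CPM to 407.6 to 726.5 and 323.5 to 880.9 CPM. Cdh11, the cadherin of mesenchymal cells and the gene of the list not called, was at 0.961, 1.31 and 110.0 CPM in TKO and 8.77 to 386.1 CPM in the mutants. Of the genes called, S100a4 was near the detection limit, at 1, 1 and 2 counts in TKO and 5, 5 and 3 in CARM1 knockout libraries. Postn went from 0.288 to 0.487 CPM in TKO to 83.2 to 372.7 CPM in CARM1 knockout and only 0.986 to 3.40 CPM in NFIB mutant libraries. Both were picked after the values were seen. The count of 12 was the same without the pair of libraries named above.

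Mesenchymal genes are also genes of fibroblasts, and the markers of that cell type moved with them. The 7 fibroblast markers summed to 14.9 to 70.3 CPM in TKO, 14900 to 26080 CPM in CARM1 knockout and 10010 to 16610 CPM in NFIB mutant libraries, and 7 and 6 of them were called higher. Col1a1, the main collagen of fibroblasts, was at 0.288 to 3.85 CPM in TKO and at 2372 to 10050 CPM in the mutants. The 7 markers of smooth muscle and pericytes summed to 6.69 to 13.6 CPM in TKO, 522 to 2011 CPM in CARM1 knockout and 157 to 570.0 CPM in NFIB mutant tumors, with 5 and 4 called higher. Leukocyte markers summed to 12.6 to 75.2, 179 to 2448 and 16.8 to 416.0 CPM, with 5 and 1 of 9 tested called higher. The 416.0 CPM were in NFIB mutant replicate 1, where Lyz2 alone gave 403.8 CPM and Ptprc 0.365 CPM. NFIB mutant replicate 2 summed to 388.9 CPM, with Ptprc at 25.8 CPM. Mesothelial markers summed to 0.399 to 14.7, 5.56 to 94.7 and 44.7 to 93.8 CPM, and Msln alone gave 44.7 to 92.1 CPM in NFIB mutant libraries. Of the 6 endothelial markers Emcn and Cldn5 were at 0 in every library, and the sum was at most 17.4 CPM. The part of fibroblasts and of the other cell types in the rise of Snai1, Snai2, Twist2, Zeb2, Vim and the mesenchymal readouts was not tested.

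**Figure D4:**
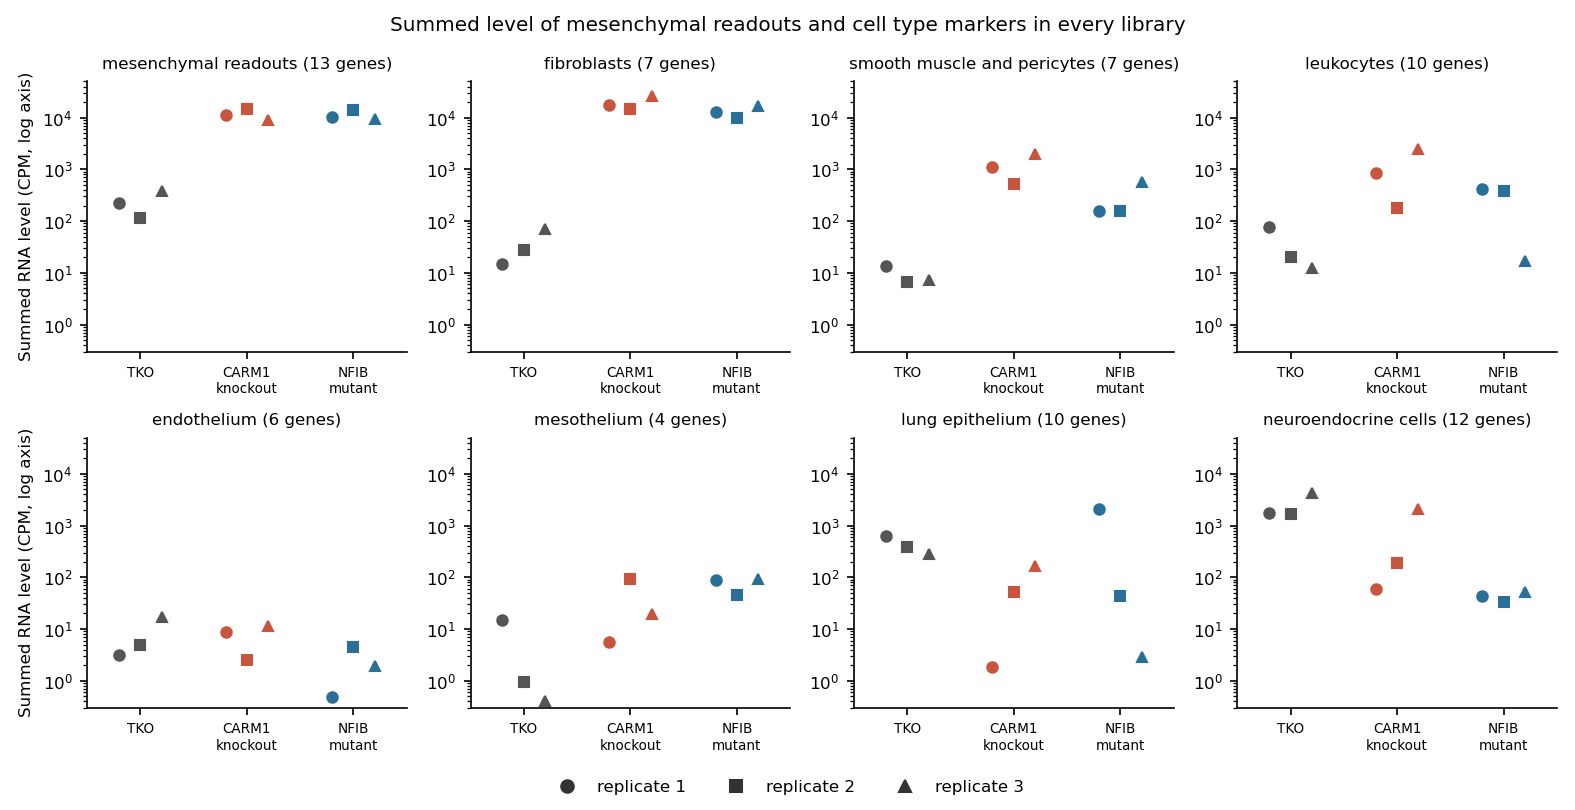
Summed RNA level, in CPM on a log axis, of the 13 mesenchymal readouts and of the markers of 7 cell types in each library. Fibroblast markers lie between 14.9 and 70.3 CPM in TKO and at 10010 CPM or more in all mutant libraries. The neuroendocrine sum of CARM1 knockout replicate 3 lies within the TKO range, with 833.3 CPM of it from Calca alone.

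Of the 8 other transition factors 6 were tested. Prrx1, a homeobox gene of limb and lung mesenchyme, rose from 0.355 to 7.25 CPM in TKO to 247.1 to 678.6 CPM in CARM1 knockout and 244.0 to 1012 CPM in NFIB mutant libraries (log2 fold changes 6.93 ± 1.14 and 7.43 ± 1.17, adjusted p = 0.00416 and 0.0027). Tcf4, an E protein that pairs with bHLH factors, fell from 262.9 to 604.9 CPM to 104.9 to 143.1 and 113.3 to 172.1 CPM (adjusted p = 0.00589 in each). Foxc2, named after its values were seen, was called higher in both mutants with groups that overlapped.

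Of 13 genes of junctions and keratins tested, 4 rose in NFIB mutant tumors and 1 in CARM1 knockout, and of 6 gatekeepers tested, transcription and splicing factors that keep epithelial identity, 2 rose in each, beside 20.5% (CARM1 knockout) and 22.3% (NFIB mutant) of all genes called higher. Pkp2, the desmosomal plakophilin, was at 0.0886 to 3.27 CPM in TKO and at 6.17 to 72.4 CPM in the mutants (adjusted p = 0.0491 and 0.0236). Esrp2, a splicing regulator of epithelial cells, was at 0.133 to 1.25 CPM in TKO and at 2.10 to 19.7 CPM in the mutants (adjusted p = 0.0489 and 0.0301). In both lists 23 genes had at least 10 counts in some library. Among them Cldn4, Cldn7, Rab25 and Ovol1 did not pass the filter of the test. Of the 23, the highest library was CARM1 knockout replicate 3 for 12, NFIB mutant replicate 1 for 8 and any TKO library for 1. No share over all genes stands beside this count, which was made after the values were seen. Krt8, chosen likewise, was at 232.4 CPM in CARM1 knockout replicate 3, at 442.5 and 81.5 CPM in NFIB mutant replicates 1 and 2, and at 0.0437 to 3.22 CPM in the other 6 libraries, and Krt18 at 124.3, 184.5 and 39.3 CPM against 0.177 to 2.92 CPM. The same 3 libraries held the Cdh1 RNA. Without CARM1 knockout replicate 3 and NFIB mutant replicate 1, 8 of the 13 junction and keratin genes turned direction in CARM1 knockout. Lung epithelium markers summed to 166.1 CPM in CARM1 knockout replicate 3, 2073 CPM in NFIB mutant replicate 1 and 43.95 CPM in NFIB mutant replicate 2. They summed to 1.83 and 51.4 CPM in CARM1 knockout replicates 1 and 2 and to 2.86 CPM in NFIB mutant replicate 3. The sum of CARM1 knockout replicate 2 was above that of NFIB mutant replicate 2, but 47.9 CPM of it were Nkx2-1, against 5.30 CPM. Sftpb was at 0.35 CPM in the former and 35.9 CPM in the latter, and Cdh1 at 5.19 and 48.0 CPM. TKO libraries held 283.3 to 616.5 CPM of these markers, most of it from Nkx2-1 (236.3 to 601.0 CPM). The part of lung epithelium in the Cdh1 values was not tested.

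**Figure D5:**
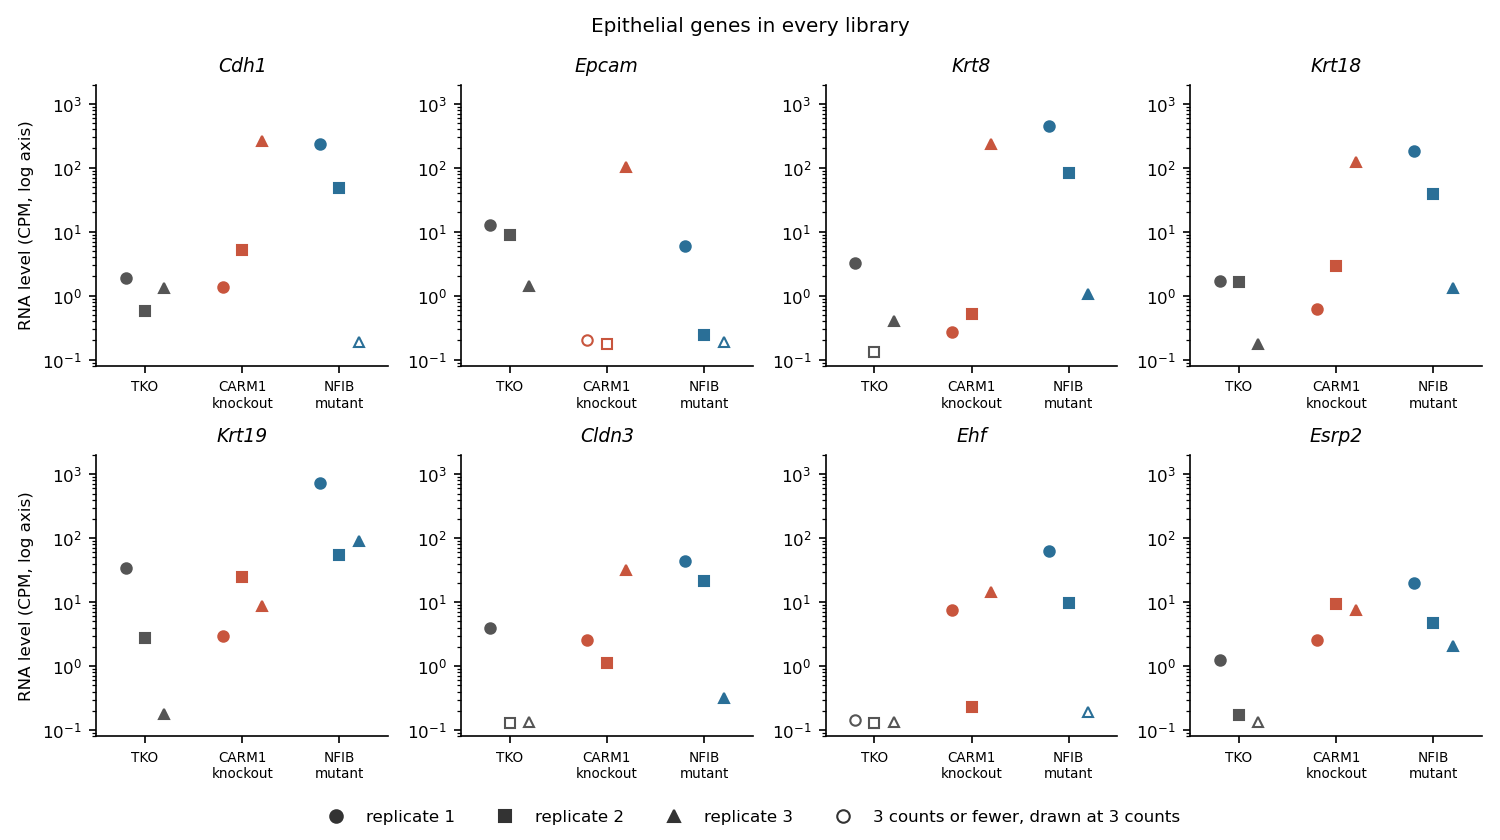
RNA level of Cdh1, Epcam and 6 other epithelial genes in each library, in CPM on a log axis. Open symbols mark 3 counts or fewer, drawn at 3 counts. Cdh1, Krt8, Krt18 and Cldn3 are high in CARM1 knockout replicate 3 and NFIB mutant replicates 1 and 2 and low in the TKO libraries and NFIB mutant replicate 3.

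The partners of the members gave smaller changes. Among 7 corepressors that Snail and ZEB proteins recruit, Hdac2, a histone deacetylase, fell from 242.5 to 282.9 CPM in TKO to 111.5 to 137.1 CPM in CARM1 knockout and 94.1 to 96.7 CPM in NFIB mutant libraries (log2 fold changes -1.08 ± 0.136 and -1.47 ± 0.138, adjusted p = 0.00156 and 0.000442). Kdm1a, the histone demethylase LSD1, fell from 173.0 to 211.8 CPM to 73.9 to 129.6 and 71.1 to 93.5 CPM (adjusted p = 0.0146 and 0.00424). Hdac1 rose in CARM1 knockout by 0.82 on the log2 scale (adjusted p = 0.0225), a call lost with both other scalings, and Ctbp1, Ctbp2, Rcor1 and Sin3a were not called. Of the catenins, which link cadherins to actin, Ctnna1 rose from 142.6 to 170.4 CPM to 418.1 to 588.9 and 514.5 to 674.3 CPM and Ctnnd1 from 7.27 to 13.7 CPM to 28.2 to 35.2 and 32.1 to 42.6 CPM (adjusted p between 0.00059 and 0.0073). Ctnnb1, the beta-catenin gene, was at 907.0 ± 57.4 CPM (SD, n = 3) in TKO and was not called.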

How the data were processed

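RNA-seq and ATAC-seq were measured in lung tumors of 3 genotypes with 3 libraries each. The authors deposited raw counts: reads per gene, from alignment with HISAT2 to mm10 and htseq-count, and reads per peak, from alignment with Bowtie2. The peak table's header names featureCounts 1.6.3, the submitters' processing notes name Genrich for peaks, and the Methods name MACS2 and bedtools. The summary entries of htseq-count were left out (no feature, 3.65% to 12.2% of a library).

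Counts were tested with edgeR 4.0.16 in R 4.3.3: TMM scaling, filterByExpr, and robust quasi-likelihood fits of all 9 libraries with genotype as the only term, with Benjamini-Hochberg adjustment over all genes or all peaks tested (adjusted p under 0.1, absolute log2 fold change at least 0.8 for genes and 0.5 for peaks). The scripts were tested on simulated data. All 10 members were named, with their start-site peaks, up to 2 more peaks per member (the largest rise and fall called in both mutants, at a mean of at least 3 log2 CPM) and up to 3 genes per direction of each list. The members and lists were chosen with earlier results of these data known. Motifs were searched in RefSeq promoters and in peaks on GRCm38.p6. DESeq2 1.42.0, other scalings, filters, a replicate block and leaving out libraries were the alternatives. The p-values measure the spread between these libraries.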

Additional observations from a re-analysis of the deposited data

How the results depend on the processing

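With a filter of 10 counts in every library, which tests fewer genes and peaks, 3 of the 6 members still tested were called in each mutant. The member peaks called dropped to 32 in each. The genes of the other lists called dropped from 23 to 15 in CARM1 knockout and from 27 to 16 in NFIB mutant tumors. DESeq2 called 4 genes of the other lists between the mutants where edgeR called 0 (4 at an unadjusted p under 0.05): Krt19, Postn, Rab25 and S100a4, named after their values were seen. Over all 16763 genes tested, DESeq2 called 317 higher and 223 lower between the mutants. Leaving out each library in turn gave 4 to 7 member genes in CARM1 knockout, 5 to 7 in NFIB mutant tumors and 0 between the mutants, 50 to 59, 52 to 63 and 0 member peaks, and 19 to 24, 22 to 27 and 0 genes of the other lists.

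Signs turned for results that were not called. Epcam RNA in CARM1 knockout ranged from -10.13, without CARM1 knockout replicate 3, to 2.71 with 1 library left out, and was -10.17 without NFIB mutant replicate 1 as well. With 1 library left out, Zeb1 RNA ranged from -0.37 to 0.013 in CARM1 knockout and from -0.27 to 0.062 in NFIB mutant tumors, the upper values without TKO replicate 2. The Twist1 start-site peak was 0.38 and 0.11 with library totals, and 0.0012 with 10 counts in every library and 0.15 without TKO replicate 3 in CARM1 knockout. With 1 library left out, the Cdh1 start-site peak ranged from -0.11, without CARM1 knockout replicate 3 (also -0.11 when NFIB mutant replicate 1 was left out as well), to 0.90 in CARM1 knockout. In NFIB mutant tumors it was -0.12 with relative log expression factors and with DESeq2, -0.22 without TKO replicate 2, -0.28 without NFIB mutant replicate 1 and up to 0.27 without another library. Except where shown, the cause was not tested. Of 710 alternative values of 40 single results, 645 kept direction and call, and 17 results did so in all. Peaks near 3 counts in TKO are limited by depth.

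Replicate numbers did not pair the libraries: correlations of deviations between libraries of the same number were -0.297 to 0.118 in RNA-seq and -0.142 to 0.118 in ATAC-seq. With a replicate block 5, 5 and 0 member genes, 55, 60 and 0 member peaks and 21, 24 and 0 genes of the other lists were called, and Epcam in CARM1 knockout was -0.46 (adjusted p = 0.976).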
